A study of Rattus norvegicus with 12 samples.

Results

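The collagen genes of the neonatal rat ventricles were taken as every protein-coding gene of the deposited table whose symbol is Col, a type number, a and a chain number. This rule found 43 records of 32545 genes in all, which carry 42 symbols because Col23a1 has 2 records. The rule reads symbols and gene types only, but it was set with earlier results of these data known. The 12 libraries came from LV- and RV-free walls of SD (Sprague–Dawley) rats, and every rat was operated on P1 (postnatal day 1) and killed on P7. Sham LV and sham RV came from rats with a sham operation, and VO LV and VO RV from rats in which a fistula between the abdominal aorta and the inferior vena cava produced volume overload (VO), with 3 libraries in each of the 4 groups. Neither the labels nor the methods say whether a library holds 1 rat or several, or whether an LV and an RV library with the same number share a rat, so p values measure only the spread between these libraries. Each library had 14121713 to 16871371 reads assigned to genes, and levels are given as FPKM, a unit that divides the reads of a gene by its length and by the depth of its library.

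Collagens are secreted or membrane-bound proteins whose chains wind into a helix, and they give the heart wall much of its tensile strength. Fibril-forming collagens, of which types I and III prevail in heart, build the interstitial fibres made largely by cardiac fibroblasts. Collagen IV forms the sheet-like network of basement membranes around cardiomyocytes and capillaries, collagen VI forms beaded filaments between cells and basement membrane, and fibril-associated collagens decorate the fibres. Several of these proteins are assembled from chains encoded by different genes, so the relative levels of partner chains are of interest as well as the levels of each.

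The collagen transcripts were unevenly distributed. Of the 43 records, 31 had a mean of at least 0.5 FPKM over the 12 libraries and were tested. Among these, 7 had a mean of at least 100 FPKM, 16 of at least 10 FPKM and 23 of at least 1 FPKM. Col3a1, the gene of the only chain of type III collagen, had the highest mean level at 1356 FPKM, followed by Col1a1 at 617 FPKM. The major collagen IV genes came next, with means of 450 FPKM for Col4a1 and 327 FPKM for Col4a2. Col6a2, Col6a1 and Col1a2 followed with 192, 184 and 149 FPKM, and these 7 genes together made up 88.9 to 90.7% of the summed collagen FPKM of each library. Fibril-forming genes held 55.5 to 72.1% of that sum, and collagen IV genes held 15.2 to 29.1%.

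Below the leading genes, each class had its own most abundant member. Col14a1, a collagen that binds the surface of fibrils, had the highest mean among the fibril-associated genes at 63.9 FPKM. Col18a1, the parent of endostatin, led the multiplexins of vessel and epithelial basement membranes with 38.5 FPKM. Among short-chain network collagens Col8a1 had a mean of 2.16 FPKM, and among transmembrane collagens Col13a1 had 0.768 FPKM. None of the 3 remaining genes was tested, and Col26a1 had the highest mean of them at 0.337 FPKM.

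**Figure D1:**
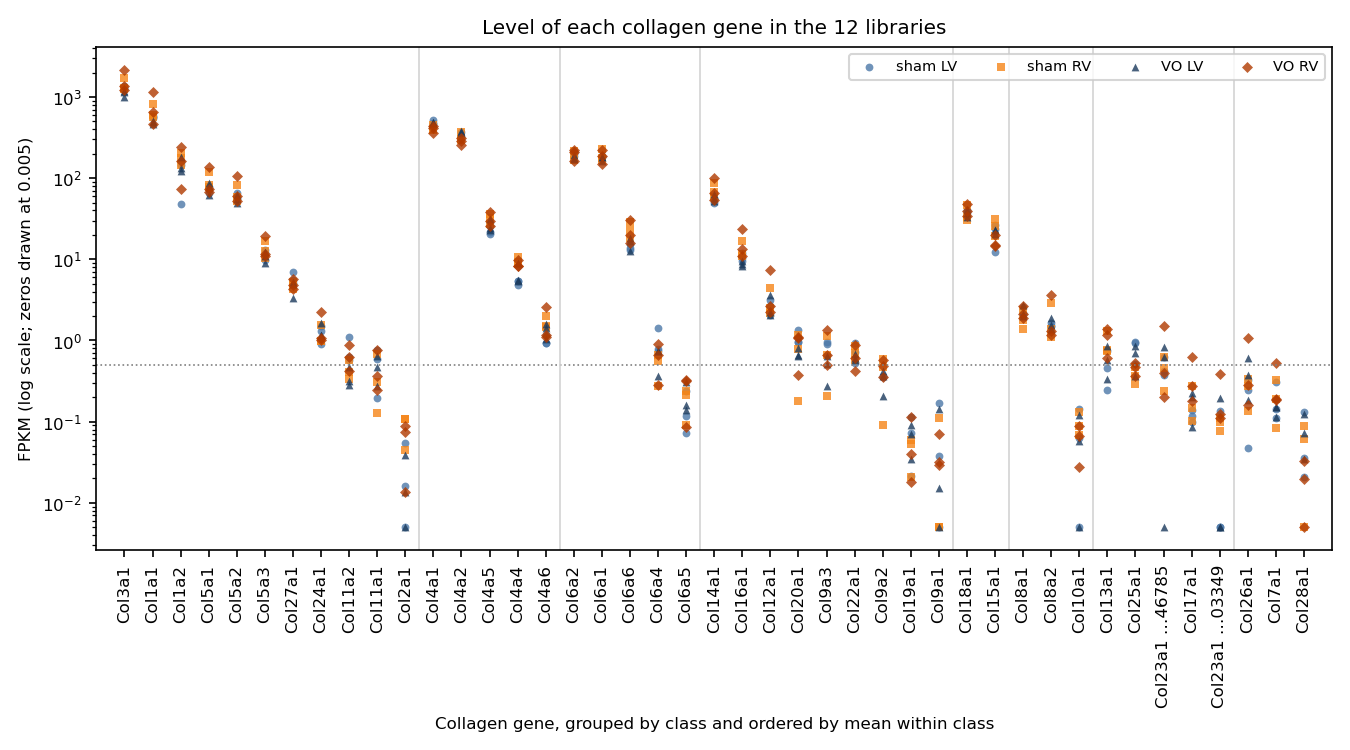
Level of each of the 43 collagen records (x axis, grouped by class and ordered by mean) in FPKM on a log axis, with 1 point for each of the 12 libraries and the dotted line at 0.5 FPKM. The means run from 1356 FPKM for Col3a1 down to 0.0465 FPKM for Col2a1, and the points of the 4 groups lie over each other for most genes.

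The other 12 records had means between 0.0465 and 0.454 FPKM, with no single value above 1.06 FPKM. They include the cartilage collagen genes Col2a1, Col9a1, Col9a2, Col10a1 and Col11a1, the anchoring-fibril gene Col7a1 and the hemidesmosome gene Col17a1. Across all 43 records, 6 were at 0 in at least 1 library. For Col2a1, which had 0 reads in sham LV replicate 1 and VO LV replicate 2, a count of 0 allows up to 0.0430 and 0.0398 FPKM (3 reads), which covers counting error only. Col4a3 and Col21a1 were not among the gene names used here. Col6a3 was listed as a processed transcript and is therefore no member, although its level was 15.1 to 38.2 FPKM.

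Libraries within a group did not vary equally, and this bears on every RV result. VO RV replicate 2 held the highest value of the 12 libraries in 18 of the 31 tested collagen genes (58.1%), while it was highest in 12.5% of all tested genes. Its median log2 difference from the other 2 VO RV libraries was +0.49 over the collagen genes and 0.83 over the fibril-forming ones, and the median over all tested genes was 0.00. Sham RV replicate 1 stood 0.46 above the other 2 sham RV libraries in the median and was higher in 28 of 31 genes. VO RV replicate 1 stood apart in the other direction, with a median of −0.43 and 3 of 31 genes higher than in its group partners.

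Markers of other cell types set VO RV replicate 2 apart, and atrial markers also sham RV replicate 1. The summed FPKM of the 4 atrial markers (Myl7, Sln, Myl4 and Bmp10) was 1522 in VO RV replicate 2 and 440 in sham RV replicate 1, compared with 148 to 306 in the other 10 libraries, and Sln and Bmp10 were listed at 0 in at least 1 library. The 8 fibroblast markers summed to 1213 FPKM in VO RV replicate 2 and to 561 to 880 elsewhere. The 7 ventricular cardiomyocyte markers summed to 10786 FPKM in that library and to 13606 to 16831 elsewhere, and the 6 valve and cartilage markers, of which 2 had a mean of at least 0.5 FPKM, to 11.8 FPKM and 3.14 to 4.67 FPKM. The part of these marker differences in the collagen values was not tested. In bulk tissue, fewer cells of a type and less RNA per cell cannot be told apart.

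**Figure D2:**
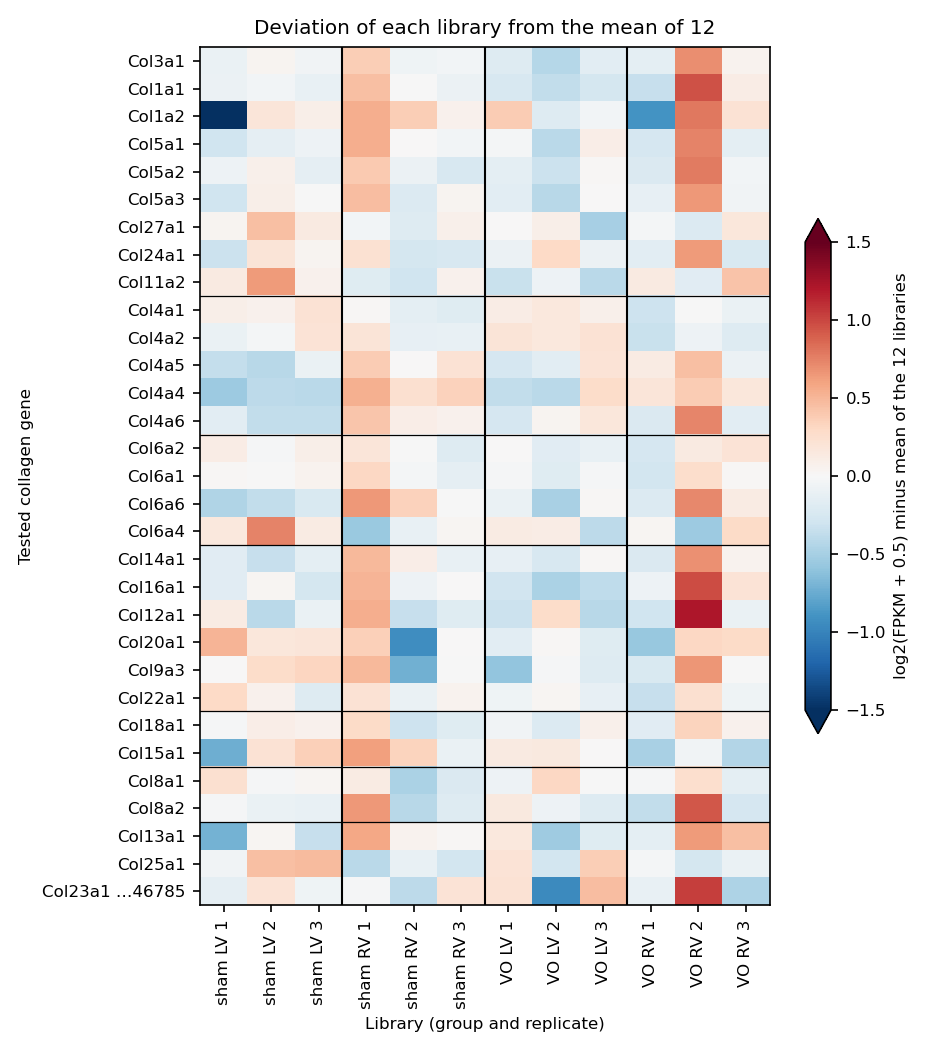
Deviation of each library (columns, by group and replicate) from the mean of the 12 libraries for each of the 31 tested collagen genes (rows, by class), as log2(FPKM + 0.5), with red for higher and blue for lower. VO RV replicate 2 is the highest library for 18 of 31 genes, and sham LV replicate 1 and VO RV replicate 1 are blue for Col1a2.

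Summed over all collagen genes, the groups overlapped in every comparison. The sum was 3338, 3605 and 3618 FPKM in sham LV, and 4514, 3476 and 3372 FPKM in sham RV. In VO LV it was 3418, 3065 and 3408 FPKM, and in VO RV 2999, 5313 and 3651 FPKM. The means of the LV groups were 3520 ± 158 (SD, n = 3) after sham and 3297 ± 201 after VO, and those of the RV groups 3787 ± 631 after sham and 3988 ± 1193 after VO. Exact two-sided permutation tests gave p values of 0.30 for VO LV against sham LV and 0.80 for VO RV against sham RV, where 3 libraries against 3 cannot go below 0.10. VO RV against sham RV had a ratio of means of 1.05 with all libraries and 0.878 without VO RV replicate 2.

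The balance between interstitial and basement membrane collagen separated some of the groups. Summed fibril-forming FPKM divided by summed collagen IV FPKM was 2.48, 2.79 and 2.30 in sham LV and 3.39, 2.97 and 2.89 in sham RV. It was 2.26, 1.91 and 2.23 in VO LV and 2.87, 4.76 and 3.17 in VO RV. The VO LV values lay below all 3 sham LV values, the sham LV values below all sham RV values, and the VO LV values below all VO RV values, each with an exact permutation p of 0.10, the smallest this design allows. VO RV and sham RV overlapped (p = 0.70, exact permutation test). The ratio of the VO LV mean to the VO RV mean was 0.593, and 0.707 without VO RV replicate 2, and that of VO RV to sham RV was 1.17 and 0.978. After adjustment over the 28 tests of this kind, the smallest p was 0.31 (Benjamini-Hochberg, exact permutation tests), so no difference of sums or ratios passed a threshold of 0.05. Summed collagen IV itself had a mean of 890 ± 3.79 FPKM (SD, n = 3) for VO LV, above every VO RV library (734 ± 73.3 FPKM), and fibroblast markers summed to 653 ± 105 and 956 ± 229 FPKM in the same groups, also without overlap.

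**Figure D3:**
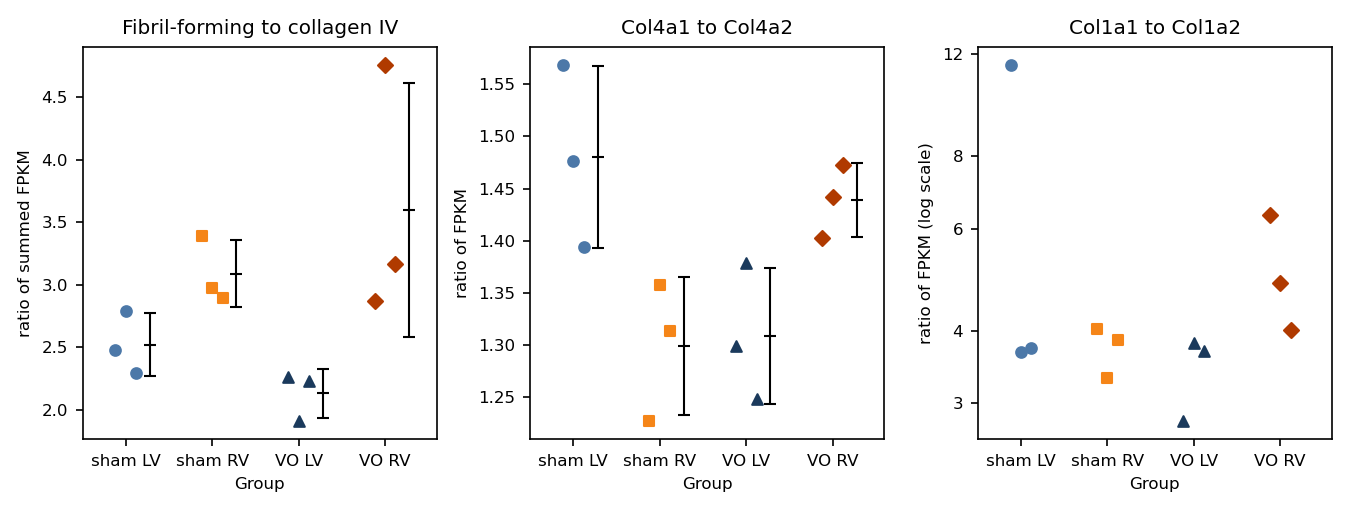
Ratio of summed fibril-forming to summed collagen IV FPKM (left), of Col4a1 to Col4a2 FPKM (middle) and of Col1a1 to Col1a2 FPKM (right, log axis) in each library of the 4 groups, with points for libraries and black bars for mean ± SD in the left and middle panels. The left panel runs from 1.91 in VO LV replicate 2 to 4.76 in VO RV replicate 2, and in the right panel sham LV replicate 1 stands at 11.5.

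Single genes were then compared in 1 limma model of the 4 groups on log2(FPKM + 0.5), and a DEG (differentially expressed gene) needed a Benjamini-Hochberg adjusted p under 0.05 over all 13910 tested genes and a fold change over 1.3. A gene that met the fold criterion with an unadjusted p under 0.05 is called nominal below. Fold changes on this scale understate the change of genes with low FPKM. The first comparison asked how the normal neonatal LV and RV differ. Col4a4, which encodes a chain of the specialised collagen IV network of glomerular and other basement membranes, was the only collagen DEG between sham LV and sham RV. In the deposited table, whose build is not named, it lies on the minus strand of chromosome 9 from 88232455 to 88357182. Its level was 4.87, 5.46 and 5.39 FPKM in sham LV and 10.8, 8.72 and 9.40 FPKM in sham RV. All 3 LV libraries lay below all 3 RV libraries, and the log2 fold change of LV against RV was −0.82 ± 0.17 (SE), a 1.76-fold lower level with a limma adjusted p of 0.0361. This is 1 DEG among 31 collagen genes, where 3.86% of all tested genes were DEGs. Without sham RV replicate 1 the difference was −0.74 with a limma adjusted p of 0.134, which ends the call, as did leaving out sham LV replicate 1 or 2, sham RV replicate 2 or 3, or VO LV replicate 2 (0.0504 to 0.111).

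Other collagen IV genes did not all follow Col4a4. Col4a5, whose chain partners with that of Col4a4, was at 21.4, 20.5 and 25.6 FPKM in sham LV and 35.8, 27.6 and 31.9 FPKM in sham RV. Col4a6, whose chain also joins that of Col4a5, was at 1.16, 0.941 and 0.940 FPKM in sham LV and 1.98, 1.49 and 1.45 FPKM in sham RV. For both genes the LV libraries lay below the RV libraries, with log2 fold changes of −0.49 ± 0.16 (SE, limma adjusted p = 0.0986) and −0.49 ± 0.25 (adjusted p = 0.230). The main-network gene Col4a1 lay the other way without overlap, at 475, 469 and 522 FPKM in sham LV and 455, 404 and 396 FPKM in sham RV (+0.22 ± 0.10, limma adjusted p = 0.191). Col4a2, its partner, overlapped between the ventricles with a log2 fold change of +0.04 ± 0.12.

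The collagen IV genes lie in the genome as head-to-head pairs, and stretches before their starts are shown as a description of sequence. No link between these stretches and the levels was tested, and Col4a3 had no level here. In the RefSeq annotation of GRCr8, 76 bases separate the starts of Col4a2 and Col4a1 and 412 those of Col4a4 and Col4a3. Between Col4a6 and Col4a5 there are 1263 bases from gene record to gene record, and 1414 between the starts from which the stretches below are counted. The first line below is the whole stretch between Col4a2 and Col4a1 on the plus strand (chr16:84885521-84885596). The others are the 250 bases before the start, 5′ to 3′ on the strand of the gene, for Col4a4 (minus strand, chr9:91323578-91323827), Col4a5 (plus strand, chrX:109907109-109907358) and Col4a6 (minus strand, chrX:109905945-109906194). Capitals mark GGGCGG or its reverse complement CCGCCC, the core of the GC box.
Col4a2-Col4a1: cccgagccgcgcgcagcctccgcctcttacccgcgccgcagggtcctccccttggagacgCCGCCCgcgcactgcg
Col4a4: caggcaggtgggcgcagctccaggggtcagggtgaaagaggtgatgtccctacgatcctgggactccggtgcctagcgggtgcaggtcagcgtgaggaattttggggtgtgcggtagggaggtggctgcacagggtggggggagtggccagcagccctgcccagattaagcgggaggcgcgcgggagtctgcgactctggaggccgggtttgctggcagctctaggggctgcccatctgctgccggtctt
Col4a5: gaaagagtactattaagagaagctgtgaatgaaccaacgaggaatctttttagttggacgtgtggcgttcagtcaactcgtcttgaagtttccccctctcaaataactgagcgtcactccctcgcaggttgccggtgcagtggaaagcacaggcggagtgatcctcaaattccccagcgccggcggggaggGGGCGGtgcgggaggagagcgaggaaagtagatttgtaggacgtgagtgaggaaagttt
Col4a6: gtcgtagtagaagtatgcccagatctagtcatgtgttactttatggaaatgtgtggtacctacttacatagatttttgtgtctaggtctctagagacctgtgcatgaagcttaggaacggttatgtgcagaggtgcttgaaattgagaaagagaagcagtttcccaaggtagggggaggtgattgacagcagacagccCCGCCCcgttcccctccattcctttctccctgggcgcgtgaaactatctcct

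These letters were searched on both strands, together with CCAAT and TATAAA, none of which overlaps another. The GC-box core stands at base 61 of the Col4a2-Col4a1 stretch, base 192 of the Col4a5 stretch and base 199 of the Col4a6 stretch, and none of the 3 motifs is in the 250 bases before Col4a4. Among 33469 windows of 250 bases before RefSeq starts, 30.5% hold GGGCGG, 34.0% CCAAT and 12.9% TATAAA. RefSeq had 36 windows for 33 of the 42 collagen symbols, of which 18, 11 and 4 hold these motifs in at least 1 window. The collagen counts are per symbol and the shares above per window, so they are not directly comparable. A match is a description of letters, and no factor binding was measured.

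The collagen VI genes also differed among themselves. Col6a6, an alternative chain to that of Col6a3, was at 13.1, 13.9 and 15.5 FPKM in sham LV and 28.7, 23.2 and 18.2 FPKM in sham RV, with no overlap and a log2 fold change of −0.68 ± 0.23 (SE, limma adjusted p = 0.0974). The 2 obligate chain genes were nearly level, with log2 fold changes of +0.06 ± 0.13 for Col6a2 and −0.02 ± 0.14 for Col6a1. Accordingly the ratio of Col6a1 to Col6a6 was 12.3 to 14.2 in sham LV and 7.73 to 9.16 in sham RV. Without sham RV replicate 1 the Col6a6 difference was −0.52.

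Across all 31 tested collagen genes, 14 had a higher and 17 a lower level in sham LV, with a median log2 fold change of −0.07 against 0.01 over all tested genes. This median turned to +0.11 without sham RV replicate 1 and was −0.19 without sham RV replicate 3. Of the 31 genes, 4 (12.9%) were nominal, Col4a4, Col6a6, Col4a5 and the transmembrane collagen gene Col25a1, compared with 17.8% of all tested genes. Col25a1 was at 0.510, 0.929 and 0.957 FPKM in sham LV and 0.292, 0.467 and 0.365 FPKM in sham RV (+0.55 ± 0.24, limma adjusted p = 0.178). Only 8 to 25 reads per library lay behind this gene, and its mean over all libraries, 0.568 FPKM, was close to the 0.5 FPKM filter. The RV groups averaged less than that filter, 0.375 FPKM after sham and 0.458 FPKM after VO. The sham LV values, with the highest group mean (0.799 FPKM), helped Col25a1 pass the filter and also enter this difference. Sham LV and sham RV did not overlap for 9 of the 31 genes, where 32.2% of all tested genes did not overlap. With voom, 6 of the 31 (19.4%) were nominal, where 19% of all tested genes were. In the same comparison the summed endothelial markers were 348 to 375 FPKM in sham LV and 256 to 279 FPKM in sham RV, with 3 of 5 tested markers higher as DEGs (Tie1, Emcn and Kdr) and the endothelial marker Cldn5 listed at 0 in every library. Fibroblast markers overlapped (754 to 812 and 783 to 878 FPKM). Of 7 mural markers 6 had higher means in sham LV (median of the 7 +0.35). Of 7 ventricular cardiomyocyte markers 4 were nominal and lower in sham LV, with Ryr2 a DEG, and 3 had higher means (median of the 7 −0.41). The groups did not overlap for 4 lower and 2 higher markers. Of 6 epicardial markers 5 had lower means (median of the 6 −0.88) and 2 of these were nominal, while Wt1 was higher as a DEG. The part of these cell-type differences was not tested.

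**Figure D4:**
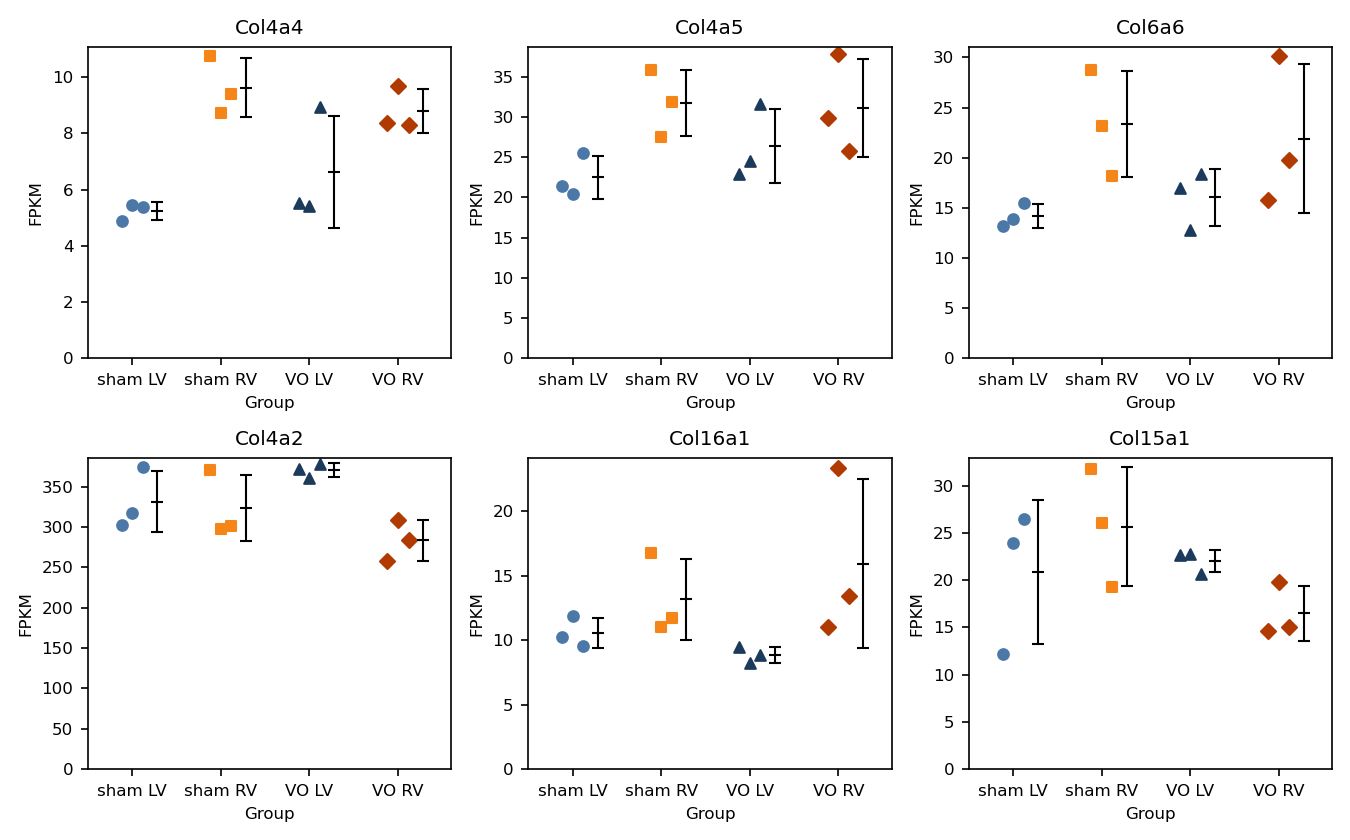
FPKM (y axis, from 0) of Col4a4, Col4a5, Col6a6, Col4a2, Col16a1 and Col15a1 in each library of the 4 groups, with points for libraries and black bars for mean ± SD (n = 3). For Col4a4 the sham LV libraries lie between 4.87 and 5.46 FPKM and the sham RV libraries between 8.72 and 10.8 FPKM, while 1 VO LV library reaches 8.94 FPKM.

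Volume overload of the LV was examined next, by comparing VO LV with sham LV. No collagen gene was a DEG in limma, where 0.0935% of all tested genes were DEGs, and 1 of 31 (3.23%) was nominal, compared with 15.7% of all tested genes. With voom on the recovered reads there were 0 collagen DEGs and 2 nominal collagen genes, where 339 of all tested genes were DEGs and 17.2% were nominal. The nominal gene in limma was Col11a2, a minor fibril-forming chain gene, at 0.629, 1.11 and 0.573 FPKM in sham LV and 0.314, 0.478 and 0.279 FPKM in VO LV (−0.55 ± 0.25, limma adjusted p = 0.210), close to the 0.5 FPKM filter. Its group means were 0.769 FPKM in sham LV, 0.357 in VO LV, 0.438 in sham RV and 0.644 in VO RV. It passed the filter only through its high sham LV values. The median log2 fold change of the collagen genes was −0.09, against −0.02 for all tested genes. VO LV lay below sham LV without overlap in 8 genes and above it in 0, where 32.4% of all tested genes did not overlap, 16.7% above and 15.7% below.

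Among those 8 genes were both leading fibril-forming genes. Col3a1 was at 1245, 1370 and 1285 FPKM in sham LV and 1164, 988 and 1193 FPKM in VO LV. Col1a1, the major type I chain gene, was at 561, 579 and 550 FPKM in sham LV and 506, 463 and 498 FPKM in VO LV. Every VO LV library was lower for both genes, but the limma differences were −0.22 (95% interval −0.67 to 0.22) and −0.20 (−0.77 to 0.37), which did not pass the threshold. Col1a2, the partner of Col1a1, had the widest interval of the tested collagen genes at 0.46 (−0.55 to 1.47). Sham LV replicate 1 was at 48.7 FPKM for this gene and the other sham LV libraries at 157 and 147 FPKM. All 8 fibroblast markers tested had lower means in VO LV as well (median −0.24), with 0 of 8 nominal. Of 7 ventricular cardiomyocyte markers 5 had higher means in VO LV, 4 of them nominal, and 2 had lower means (median of the 7 +0.45). The groups did not overlap for 4 higher and 1 lower marker. Means were lower for 5 of 5 endothelial markers (median −0.24, 1 nominal) and 6 of 6 epicardial markers (median −0.52, 0 nominal). No marker was a DEG, and their part in the collagen values was not tested.

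The type V genes, whose chains join type I fibrils and limit their width, had small differences in the LV. Col5a1 was at 66.2, 74.3 and 77.0 FPKM in sham LV and 79.4, 61.5 and 86.9 FPKM in VO LV, with a log2 fold change of +0.06 ± 0.25. Col5a2 and Col5a3 had −0.10 ± 0.24 and −0.11 ± 0.22, and the groups overlapped for all 3 genes. Col27a1, a further fibril-forming gene, was at 5.15, 6.99 and 5.5 FPKM in sham LV and 5.0, 5.31 and 3.38 FPKM in VO LV (−0.34 ± 0.17, limma adjusted p = 0.255). Without VO LV replicate 3 its difference was −0.16. The remaining genes without overlap were Col9a3, Col20a1, Col6a4, Col16a1, Col6a1 and Col11a2, of which Col11a2, Col9a3, Col20a1 and Col6a4 had means under 1 FPKM. The differences of the last 3 were −0.47, −0.39 and −0.39.

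Col1a2 also stood out in the chain ratio. The ratio of Col1a1 to Col1a2 was 11.5 in sham LV replicate 1 and 6.33 in VO RV replicate 1, where Col1a2 was at 74.3 FPKM, and 2.79 to 4.84 in the other 10 libraries. Col1a1 stood at 561 and 470 FPKM in these 2 libraries. Ratios of other partner chains had narrower ranges over the 12 libraries, 1.14 to 1.51 for Col5a1 to Col5a2, 0.957 to 1.19 for Col6a2 to Col6a1, and 0.729 to 1.80 for Col8a1 to Col8a2.

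Collagen IV genes in the overloaded LV had small differences. Col4a1 was at 484, 498 and 473 FPKM in VO LV and had the narrowest interval of the tested collagen genes, with a log2 difference from sham LV of −0.01 (95% interval −0.23 to 0.21). Col4a2 was at 303, 317 and 375 FPKM in sham LV and 373, 361 and 379 FPKM in VO LV, a difference of +0.17 (−0.09 to 0.42). The ratio of Col4a1 to Col4a2 was therefore 1.57, 1.48 and 1.39 in sham LV and 1.3, 1.38 and 1.25 in VO LV, without overlap (exact permutation p = 0.10, adjusted p = 0.31). Col4a4 had 2 VO LV libraries at the sham LV level, 5.53 and 5.41 FPKM, and 1 at 8.94 FPKM (+0.28, −0.08 to 0.64). Of the other genes with the highest mean of their class, Col6a2 had a difference of −0.15, Col14a1 of +0.11, Col18a1 of −0.11, Col8a1 of −0.01 and Col13a1 of +0.16, none past the threshold. With 1 library left out, the difference of Col13a1 ran from −0.03 to +0.34 and that of Col8a1 from −0.13 to +0.07.

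**Figure D5:**
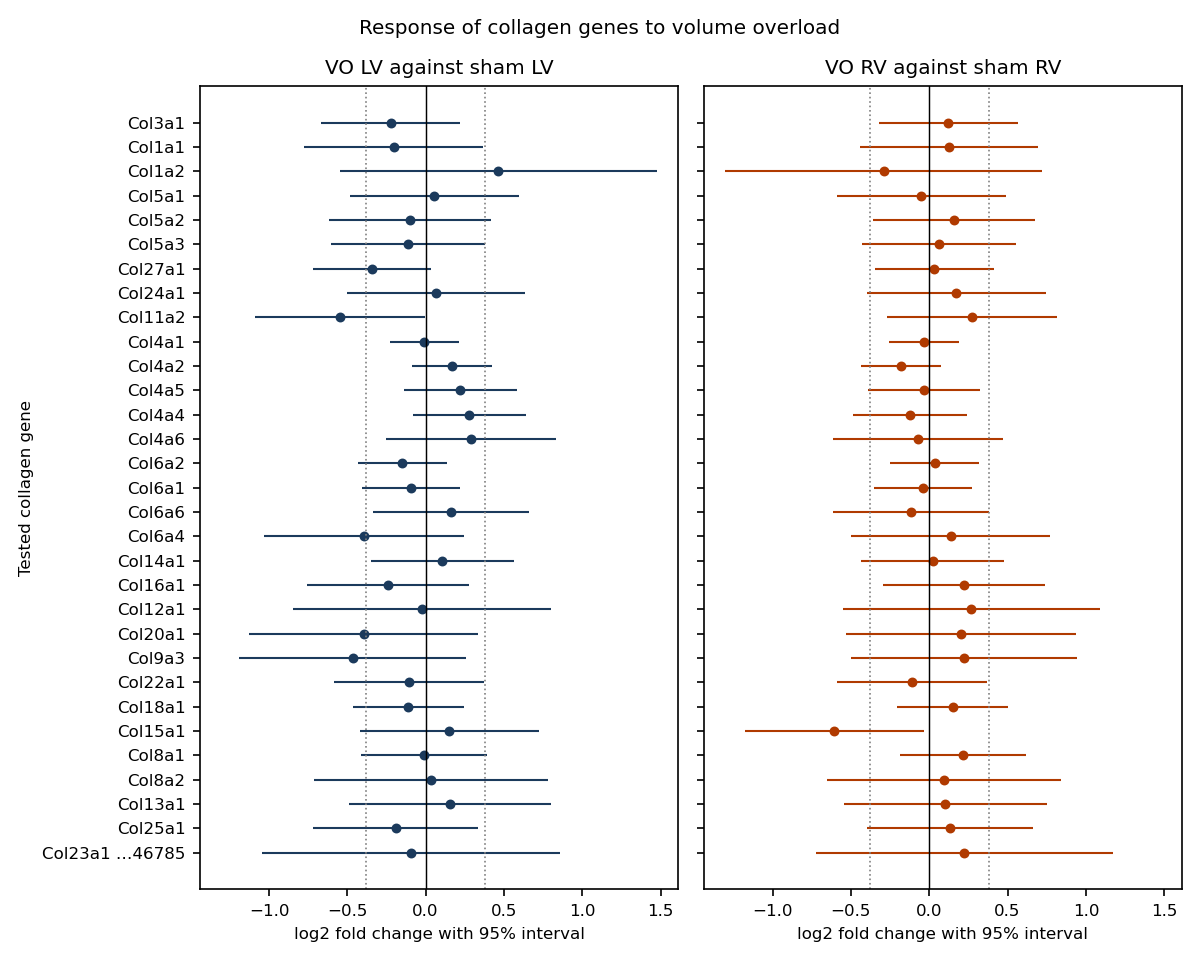
Log2 fold change of each of the 31 tested collagen genes in VO LV against sham LV (left) and VO RV against sham RV (right), with points for the limma estimate, lines for its 95% interval, and dotted lines at a fold change of 1.3 in either direction. Every interval crosses 0 except those of Col11a2 (−0.55) on the left and Col15a1 (−0.61) on the right.

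In the overloaded RV, collagen levels differed widely between libraries. No collagen gene was a DEG in limma in VO RV against sham RV, where 0% of all tested genes (0 of 13910) were DEGs. Of the 31 collagen genes 1 (3.23%) was nominal, compared with 683 of all tested genes (4.91%). With voom on the recovered reads 1 collagen gene and 741 of all genes were nominal, and there were 0 DEGs again. The nominal gene in limma was Col15a1, a multiplexin of basement membranes, at 31.8, 26 and 19.2 FPKM in sham RV and 14.6, 19.8 and 15.1 FPKM in VO RV (−0.61 ± 0.26, limma adjusted p = 0.579), and the groups overlapped. The groups overlapped for all 31 tested collagen genes, where 12.5% of all tested genes did not overlap.

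The median log2 fold change of the collagen genes in the RV was +0.09 with 20 of 31 genes higher, and it was −0.16 without VO RV replicate 2 and −0.04 without sham RV replicate 2. It was +0.20 without VO RV replicate 1 and +0.18 without sham RV replicate 1. Col1a1 was at 816, 595 and 560 FPKM in sham RV and 470, 1159 and 645 FPKM in VO RV, so that VO RV held both the lowest and the highest library. Its log2 fold change was +0.13 (95% interval −0.45 to 0.70), +0.42 without VO RV replicate 1, and −0.23 without VO RV replicate 2. Col3a1 was at 1723, 1268 and 1289 FPKM in sham RV and 1206, 2161 and 1381 FPKM in VO RV, with +0.12 (−0.32 to 0.56), and −0.13 without VO RV replicate 2. Col14a1 followed with +0.02 (−0.44 to 0.48) and −0.24. Leaving out this library turned the direction of 12 of the 30 collagen genes then tested, these 3 among them. Without both VO RV replicate 2 and sham RV replicate 1, the median was 0.00. In the same comparison 3 of 7 macrophage markers were nominal and higher in VO RV (median of the 7 +0.29) and 2 of 7 ventricular cardiomyocyte markers nominal and lower (median of the 7 −0.25). Means were higher in VO RV for 8 of 8 fibroblast markers (median +0.16), 4 of 4 atrial markers (median +0.69) and 5 of 5 endothelial markers (median +0.06), 0 of them nominal. Of 7 mural markers 1 was nominal and higher. Of 6 epicardial markers 4 had higher means, and 1 of the 6 was nominal. No marker was a DEG, and their part was not tested.

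Collagen IV genes had lower means in VO RV than in sham RV for 5 of 5 genes, none past the threshold. Some were nearly level, with means in VO RV and sham RV of 31.2 and 31.8 FPKM for Col4a5 and 1.62 and 1.64 FPKM for Col4a6. Col4a2 was at 371, 298 and 302 FPKM in sham RV and 258, 309 and 284 FPKM in VO RV, a difference of −0.18 (95% interval −0.44 to 0.07). Col4a1 had a difference of −0.03 (−0.26 to 0.19), and Col4a4, at 8.38, 9.69 and 8.29 FPKM in VO RV, of −0.12 (−0.48 to 0.24). With 1 library left out, the difference of Col4a1 ran from −0.10 to +0.05. The ratio of Col4a1 to Col4a2 was 1.23, 1.36 and 1.31 in sham RV and 1.40, 1.44 and 1.47 in VO RV, again without overlap (exact permutation p = 0.10, adjusted p = 0.31). The VO RV values were thus above those of sham RV, while the VO LV values were below those of sham LV. Of the remaining class leaders, Col6a2 had a difference of +0.03 (−0.02 without VO RV replicate 2), Col18a1 of +0.15 (0.02), Col8a1 of +0.22 (0.10) and Col13a1 of +0.10 (−0.06).

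The ventricles under volume overload were then compared directly. No collagen gene was a DEG between VO LV and VO RV in limma, where 0.00719% of all tested genes (1 gene) were DEGs. Without VO RV replicate 1 there were 48 DEGs over all genes and still 0 among the collagens, of which 7 (22.6%) were nominal, compared with 11.4% of all tested genes, with a median of −0.38. With all libraries 4 of the 31 collagen genes (12.9%) were nominal, compared with 7.4% of all tested genes. Without VO RV replicate 2, 30 collagen genes were tested and 2 (6.67%) were nominal, compared with 8.22% of all tested genes, and voom with all libraries gave 0 collagen DEGs and 5 nominal collagen genes, where 8.53% of all tested genes were nominal. The median log2 fold change of LV against RV was −0.15, with 8 genes higher and 23 lower, against 0.01 over all tested genes, and −0.01 without VO RV replicate 2. The groups did not overlap for 5 of 31 genes, where 16.1% of all tested genes did not overlap.

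The largest difference was that of Col16a1, a fibril-associated collagen, with a log2 fold change of −0.75 ± 0.24 (SE, limma adjusted p = 0.310). Its level was 9.48, 8.24 and 8.81 FPKM in VO LV and 11, 23.4 and 13.4 FPKM in VO RV, without overlap, and the difference was −0.44 without VO RV replicate 2. Col3a1 likewise lay lower in every VO LV library (−0.46 ± 0.20, limma adjusted p = 0.422), with a difference of −0.21 without VO RV replicate 2. The collagen IV genes again lay in both directions. Col4a2 was higher in every VO LV library (+0.39 ± 0.12, limma adjusted p = 0.288) and remained higher at +0.46 without VO RV replicate 2, while Col4a4 overlapped with −0.41 ± 0.17 (limma adjusted p = 0.390), and had −0.34 without that library. In this comparison all 8 fibroblast markers had lower means in VO LV (median −0.56), 6 of them nominal. The 6 epicardial markers also had lower means in VO LV (6 of 6, median −1.45, 5 nominal), and the 7 ventricular cardiomyocyte markers had higher means (7 of 7, median 0.31, 3 nominal). Means were also lower for 4 of 4 atrial markers (median −1.56, 0 nominal) and 7 of 7 macrophage markers (median −0.39, 1 nominal), and no marker of these lists was a DEG. The part of these differences in the collagen values was not tested.

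The last comparison asked whether the responses of LV and RV differ, as the VO effect in LV minus that in RV. No collagen gene was called in limma, where 4.19% of all tested genes were. With voom there were also 0 collagen calls and 1 nominal collagen gene, where 804 of all tested genes were called and 24.1% were nominal. Of 31 collagen genes 1 (3.23%) was nominal in limma, compared with 23.1% of all tested genes, again Col11a2 (−0.82 ± 0.35, limma adjusted p = 0.171). Col11a2 passed the FPKM filter only through its high sham LV values, which enter this difference. The next smallest p values belonged to Col4a2 (+0.35 ± 0.16, limma adjusted p = 0.205) and Col15a1 (+0.76 ± 0.37, adjusted p = 0.219). For Col15a1 the difference was +0.42 without sham LV replicate 1 and +0.96 without sham LV replicate 3. All 5 collagen IV genes had positive differences, from 0.03 for Col4a1 to 0.40 for Col4a4, and none passed the threshold. The median of the 31 genes was −0.17, and +0.09 without VO RV replicate 2, where 4 of 30 genes (13.3%) were nominal, compared with 27.5% of all tested genes. Among cell-type markers, 3 of 7 ventricular cardiomyocyte genes were called with positive differences (Myh6, Myh7 and Ryr2, median of the 7 +0.72). All 7 macrophage markers had negative differences (median −0.47), with C1qb called. Differences were also negative for 8 of 8 fibroblast markers (median −0.38, 1 nominal), 6 of 6 epicardial markers (median −0.57, 2 nominal), 5 of 5 endothelial markers (median −0.28, 1 nominal) and 4 of 4 atrial markers (median −0.52, 0 nominal). Of 7 mural markers 2 were nominal. The part of these markers was not tested.

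Genes that make, bind and degrade collagen were read from 5 lists with 57 tested records besides the collagens. In sham LV against sham RV, 1 of 57 (1.75%) was a DEG and 7 (12.3%, 2 higher and 5 lower) were nominal, compared with 3.86% and 17.8% of all tested genes. The DEG was Timp4, an inhibitor of matrix metalloproteinases, at 7.84, 8.99 and 8.44 FPKM in sham LV and 4.16, 4.35 and 6.25 FPKM in sham RV. Its level was higher in every LV library, with a log2 fold change of +0.74 ± 0.18 (limma adjusted p = 0.0459), and the call held in 4 of 12 fits that left out 1 library (highest limma adjusted p = 0.166, without sham RV replicate 1). The 4 left out sham RV replicate 3, VO LV replicate 3, VO RV replicate 2 or VO RV replicate 3.

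In VO LV against sham LV none of the 57 was a DEG in limma, and 2 (3.51%) were with voom, compared with 2.44% of all tested genes. Of the 57, 10 (17.5%, 3 higher and 7 lower) were nominal in limma, close to the 15.7% of all tested genes. Loxl4, a lysyl oxidase-like enzyme that crosslinks collagen, had the smallest p. It was at 0.485, 0.815 and 0.538 FPKM in sham LV and 1.70, 1.49 and 2.74 FPKM in VO LV, without overlap and with a log2 fold change of +1.13 ± 0.23 (limma adjusted p = 0.0524). It passed the threshold in 2 of 9 other settings, voom (adjusted p = 0.0343) and a mean of at least 1 FPKM (limma adjusted p = 0.0487), with adjusted p up to 0.107 in the rest. With 1 library left out it passed in 2 of 12 fits, and without VO LV replicate 3 the limma adjusted p was 0.248. In VO RV against sham RV none was a DEG, and 1 (1.75%) was nominal, compared with 4.91% of all tested genes. This was Timp1, another metalloproteinase inhibitor, at 19.6, 17.9 and 22.5 FPKM in sham RV and 20.1, 35.1 and 31.2 FPKM in VO RV, with overlap (+0.49 ± 0.19, limma adjusted p = 0.560). Without VO RV replicate 2 its log2 fold change was +0.32 (limma adjusted p = 0.509).

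In VO LV against VO RV none of the 57 was a DEG, while 22 (1 higher, 21 lower) were nominal, 38.6% compared with 7.4% of all tested genes. The median log2 fold change of the 57 was −0.32. Without VO RV replicate 2 it was −0.14, and 13 (3 higher, 10 lower) were nominal, 22.8% compared with 8.22%. By role, the 22 nominal genes with all libraries were 7 of 11 fibril-binding proteoglycans and adaptors, 7 of 12 cleavage and crosslinking genes, 5 of 20 folding and hydroxylation genes, 3 of 8 degradation genes and 0 of 6 receptors. Dcn and Lum, which stand in both the proteoglycan and the fibroblast marker list, are part of the 22.

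The smallest p in this comparison was that of P3h3, a collagen prolyl hydroxylase family member, at 35.0, 33.1 and 27.9 FPKM in VO LV and 40.7, 52.4 and 60.5 FPKM in VO RV (−0.66 ± 0.17, limma adjusted p = 0.25, and −0.63 without VO RV replicate 2). P3h3 was at 54.2, 52.3 and 39.2 FPKM in sham LV and 40.7, 34.1 and 43.0 FPKM in sham RV. The ventricles thus overlapped after sham and did not overlap after VO. Its difference of responses was −0.95 ± 0.24 (limma adjusted p = 0.0479), and that of Loxl4 was +1.35 ± 0.32 (adjusted p = 0.0449). These were the 2 called among 57 genes, where 4.19% of all tested genes were called. Leaving out 1 library kept each call in 2 of 12 fits. The P3h3 call held without sham LV replicate 3 or VO RV replicate 1, and that of Loxl4 without sham RV replicate 3 or VO RV replicate 1. The highest limma adjusted p values were 0.128 and 0.117, both without VO LV replicate 3.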

How the data were processed

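The authors removed low-quality reads, aligned with HISAT2 2.0.5 and counted reads per gene with featureCounts 1.5.0-p3 (versions from the submitters' processing notes), and the deposited values are their FPKM. The genome build is not given in the sources used here. Multiplied by gene length, 100% of values under 200 reads were whole within 0.02 in each library, so reads were recovered. Columns of the authors' own comparisons were not used. No column of values was left unmapped.

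FPKM were divided by median-ratio size factors. Genes averaging at least 0.5 FPKM (13910) were taken as log2(FPKM + 0.5) and fitted with limma 3.58.1 (trend) in R 4.3.3, in 1 model of 4 groups. The Benjamini-Hochberg adjustment ran over all tested genes. Sums and ratios used deposited FPKM and exact two-sided permutation tests (28 tests). DESeq2, the authors' tool, was not run. Recovered reads were tested with voom as an alternative. The procedure was tested on simulated counts with the same dispersion for every gene and no outlying library. That test does not cover the wide spread of the RV libraries.

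Named are collagen DEGs, the gene with the highest mean of each class, the 3 smallest p values of each comparison, partner chains, and up to 3 DEGs (or the smallest p) of the pathway lists. Any other gene was named with its values known. Members and lists were chosen with earlier results of these data known. The 12 libraries were each left out in turn, besides other pseudocounts, filters, scalings and fits. Sequences are from RefSeq tables of GRCr8, and positions in the deposited table were not mixed with them.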

Additional observations from a re-analysis of the deposited data

Results flagged for a closer look

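The LV and RV responses to VO differed for 2 genes of the collagen pathway lists by a test of the difference itself in limma. These are 2 of 57 genes (3.51%), compared with 4.19% of all tested genes, and each call was lost in 10 of 12 fits that left out 1 library. For P3h3 the log2 difference of responses was −0.95, from a VO effect of −0.58 in the LV and +0.37 in the RV. For Loxl4 it was 1.35, from +1.13 in the LV and −0.22 in the RV. No collagen gene had such a difference. Within single groups no outlier test was run, since each group holds 3 libraries.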

How the results depend on the processing

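With 3 libraries per group and 14121713 to 16871371 reads on genes, moderate differences could not be resolved in genes that varied widely between libraries. The 95% interval of the VO effect spans 1.01 on either side of the estimate for Col1a2, but 0.222 for Col4a1. The 0 collagen DEGs of the VO comparisons stayed 0 under every alternative, and the Col4a4 difference between sham LV and sham RV kept its direction in all of them. That call was lost with all genes above 0 (0 collagen DEGs, limma adjusted p = 0.0655), with both RV libraries that had raised atrial markers left out (0, limma adjusted p = 0.119), and in 6 of 12 fits that left out 1 library, where the number of collagen DEGs ranged from 0 to 1; the cause was not tested. Leaving out sham LV replicate 1 or 2, sham RV replicate 1, 2 or 3, or VO LV replicate 2 ended it.

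The number of collagen genes at an unadjusted p under 0.05 was 4 for sham LV against sham RV, 6 with voom and 2 to 5 when 1 library was left out. For VO LV against sham LV it was 1 and became 0 with pseudocounts of 1 and 0.1, a mean of at least 1 FPKM, quantile normalization, separate fits and without both RV libraries, 2 with voom, and 0 to 3 when 1 library was left out. For VO RV against sham RV it was 1, 0 without both RV libraries and 0 to 1 with 1 left out. For VO LV against VO RV it was 4, 2 with quantile normalization or without both, and 2 to 7 with 1 left out, the 7 without VO RV replicate 1. For the difference of responses it was 1, 0 with a mean of at least 1 FPKM and 0 to 4 with 1 left out. Medians with 1 library left out ran from −0.19 to 0.11 in sham LV against sham RV, −0.10 to −0.03 for VO in the LV, −0.16 to 0.20 for VO in the RV, −0.38 to −0.014 for VO LV against VO RV and −0.27 to 0.091 for the difference. Without VO RV replicate 2 the differences between VO RV and sham RV turned sign for 12 of 30 collagen genes, among them Col13a1 (−0.062), Col3a1 (range with 1 library left out −0.13 to 0.29), Col1a1 (−0.23 to 0.42) and Col14a1 (−0.24 to 0.22). Sums of collagen FPKM scaled by size factors, chosen after seeing the data, moved by less than the spread between replicates.

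The labels number the libraries 1 to 3 in each group, but same-numbered libraries did not deviate together (correlations of deviations from −0.22 to 0.12), so they were not treated as pairs. With the replicate block the collagen DEGs of sham LV against sham RV were 0 (Col4a4 limma adjusted p = 0.148). The numbers of nominal collagen genes were 0 for VO LV against sham LV, 2 for VO LV against VO RV and 0 for the difference.

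Over all tested genes, DEGs between sham LV and sham RV were 537, but 8 with all genes above 0, 0 with the replicate block, 314 with separate fits, 9 without both RV libraries and 0 to 872 with 1 left out. DEGs of VO LV against sham LV were 13, but 5 with all genes above 0, 3 with the block, 6 with the gene-length trend removed, 2 without both, 56 with a pseudocount of 0.1, 183 with a mean of at least 1 FPKM, 119 with separate fits, 339 with voom and 0 to 555 with 1 left out. VO RV against sham RV had 0, and 2 without both. VO LV against VO RV had 1, and 1 to 48 with 1 left out, the 48 without VO RV replicate 1. Those of the difference of responses were 583, but 21 with all genes above 0, 0 with the block, 2 without both and 0 to 1004 with 1 left out. The P3h3 and Loxl4 differences were no longer called with the replicate block (limma adjusted p = 0.165 and 0.149), with all genes above 0 (0.0842 and 0.0756), without both RV libraries (0.108 and 0.112) or with the gene-length trend removed (0.0539 and 0.0537), and P3h3 also with quantile normalization (0.0522). The Timp4 call was lost with the replicate block (limma adjusted p = 0.154), all genes above 0 (0.0835), separate fits (0.0606) and without both RV libraries (0.139). The numbers of pathway genes with other settings were added after seeing the data.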
